A study of Mus musculus with 8 samples.

Results

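Voltage-gated and potassium ion channels of the mouse hypothalamus were followed through streptozotocin diabetes and leptin infusion. The genes were those whose array symbol placed them among potassium channels (Kcn), voltage-gated sodium channels (Scn), voltage-gated calcium channels (Cacna, Cacnb, Cacng) or hyperpolarization-activated channels (Hcn), and which had a probe detected (p under 0.05 against the negative controls) on 2 or more arrays. Where several probes of a gene qualified, the brightest over all arrays stood for it. This gave 81 genes of 110 such genes on the array, from 102 kept probes of 168. Over the whole array, 15494 of 25697 probes were kept.

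The samples were hypothalamic blocks of male mice of 12 to 15 weeks, of a strain given only as mixed, on Illumina MouseRef-8 v2 bead arrays. The control group received saline and held 2 arrays, called saline replicates 4 and 5. The STZ group held 3 arrays, STZ replicates 1, 2 and 3, from mice given repeated intraperitoneal injections of streptozotocin, a toxin of pancreatic beta cells, to induce type 1 diabetes. The leptin group held 3 arrays, leptin replicates 6, 7 and 8, from mice with the same STZ diabetes and a continuous central infusion of leptin. All STZ and leptin mice thus shared the STZ treatment, and no group received leptin without STZ. The labels do not say whether saline stood in for STZ, for leptin or for both, nor whether the saline and STZ mice had a vehicle infusion, so the infusion itself and leptin cannot be told apart here. Bead arrays of a dissected block average all its cells. Nothing in the labels ties each array to an animal of its own, so p-values reflect the spread among these 8 samples, which may be technical. The number in the description of STZ replicate 3 repeats that of STZ replicate 1. It was kept in the STZ group, which its title and source name both give.

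Ion channels set the excitability of neurons. Sodium channels carry the upstroke of the action potential, Kv channels repolarize the membrane, leak channels and inward rectifiers hold the resting potential, and calcium channels couple spikes to transmitter and hormone release. In the hypothalamus, leptin and glucose alter the firing of feeding neurons partly through such channels, and glia, vessel walls and choroid plexus carry channels of their own.

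Between 13608 and 14776 probes, 53% to 57.5% of the array, were detected per array, and 68 to 73 of the 81 channel genes. Of these genes, 60 were detected on all 8 arrays. The hypothalamic marker list was measured for 12 genes, with no kept probe for Sim1 and Otp. Of the neuronal list, 11 of 13 genes were measured, with no kept probe for Nefl and Snap25. Pituitary hormone transcripts were carried mainly by STZ replicate 2, where the summed linear intensity of their list was 76915, against 214 to 1073 on the other arrays. The summed choroid plexus and ependyma list was 2522 in STZ replicate 1 and 3214 to 6169 in the leptin arrays, against 15744 to 34198 on the remaining 4 arrays. With STZ, 1 of 9 astrocyte genes rose (Gfap), and none of 7 oligodendrocyte, 9 endothelial and mural, 5 pituitary and 12 hypothalamic genes passed. With leptin against STZ, 4 hypothalamic genes rose, Cartpt, Gal, Hcrt and Pmch, and of the astrocyte genes Gfap fell by 1.32 and S100b rose by 0.89 on the log2 scale.

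Of the 29 channel genes without a kept probe, 21 were detected on no array and 8 on 1 array. Those detected on no array included Cacna1a, the P/Q-type calcium channel pore, Kcnd3, an A-type potassium channel, Kcnj5, a G protein-gated inward rectifier, and Scn7a, a sodium-sensing channel of glia. Those detected on 1 array were Cacna1c, Kcna4, Kcnh6, Kcnj14, Kcnn4, Kcnq1, Kcnq5 and Kcnv2. Just inside the threshold, Cacna1d, Cacna1f, Kcnmb2 and Scn11a were detected on 2 arrays. Kcnj11, Kcnj10, Kcnj13 and Scn2a were not analysed here.

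Diabetes against saline compared the STZ arrays with the saline arrays, and the labels do not say what saline stood in for. Kcnk6, a tandem-pore leak channel tied in mouse macrophages to the potassium efflux that activates the NLRP3 inflammasome, rose, and it was the only channel gene of the 81 to pass. Passing means a Benjamini-Hochberg adjusted p under 0.05 in limma's moderated test over all 15494 kept probes. In that comparison 4.29% of all kept probes passed, 3.98% higher and 0.310% lower, against 1 of 81 channel genes (1.23%). At an unadjusted p under 0.05, 13 channel genes (16%) were counted against 14.4% of all probes. Of these, 12 were lower in STZ, against 6.50% of all probes, and Kcnk6 was higher, against 7.87%.

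Normalized log2 intensity of Kcnk6 was 6.96 and 7.19 in the saline arrays, 8.12, 8.68 and 8.26 in the STZ arrays, and 7.97, 7.51 and 7.83 in the leptin arrays. Every STZ array lay above every leptin array, and every leptin array above both saline arrays. The STZ arrays were 1.28 ± 0.21 (SE) higher than saline on the log2 scale, a 2.43-fold difference (limma adjusted p = 0.0079). A second probe of the gene gave 5.52 and 5.35 in saline, 6.84, 7.13 and 6.87 in STZ, and 6.45, 6.01 and 6.36 with leptin. On that probe the rise was 1.51 ± 0.18, or 2.85-fold (limma adjusted p = 0.0012). Without saline replicate 4 the rise on the brighter probe was 1.16 and did not pass (limma adjusted p = 0.11). Without STZ replicate 2, the array with pituitary transcripts, it was 1.12 (limma adjusted p = 0.020).

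Hvcn1, the voltage-gated proton channel of microglia and other phagocytes, stands outside the chosen symbols and was measured in a list of 25 channel partner genes. On the brighter of its 2 kept probes, log2 intensity was 5.54 and 6.01 in saline, 8.28, 8.14 and 8.27 in STZ, and 7.42, 7.33 and 6.97 with leptin. The groups did not overlap. Hvcn1 rose 2.46 ± 0.19 with STZ, or 5.49-fold (limma adjusted p = 0.00014). It fell with leptin by 0.99 ± 0.17 against STZ (limma adjusted p = 0.011), and remained 1.46 ± 0.19 above saline (limma adjusted p = 0.0044). Without saline replicate 4 the difference between leptin and saline was 1.23 (limma adjusted p = 0.070), and without STZ replicate 3 that between leptin and STZ was −0.97 (limma adjusted p = 0.054). In each comparison Hvcn1 was the only partner gene that passed, in a list chosen with earlier results of these data known. The STZ difference of 23 of the 25 partner genes was below 0, against 65.7% of all kept probes, with medians of −0.21 and −0.09.

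**Figure D1:**
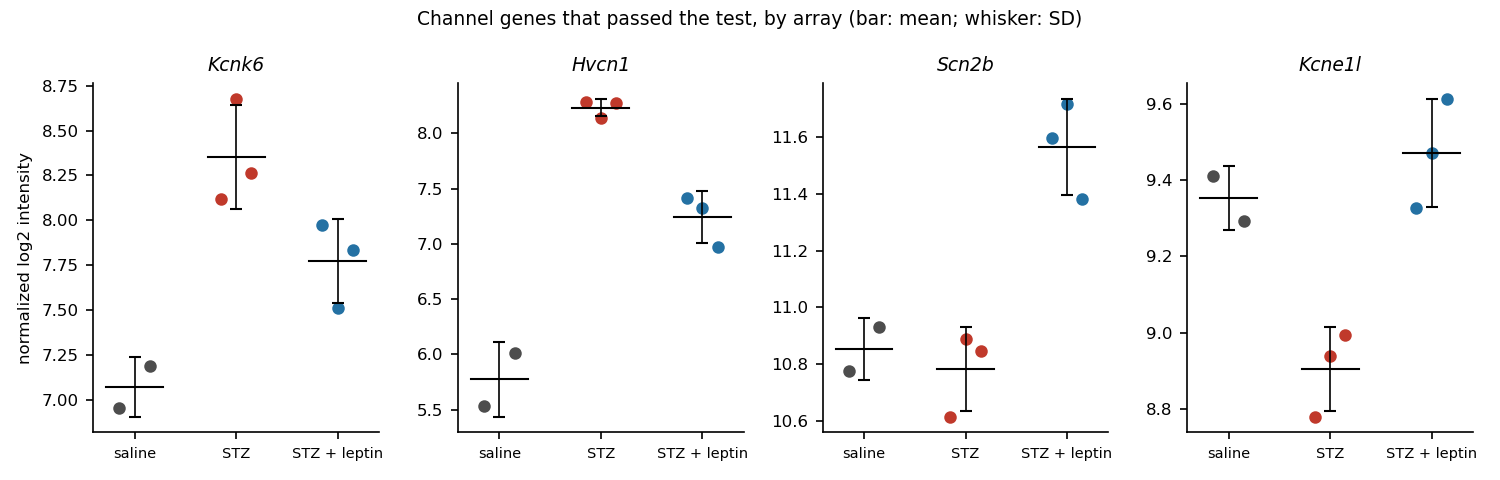
Normalized log2 intensity (y axis) by group (x axis) for the 3 channel genes that passed and for Hvcn1 of the partner list, with 1 point per array, the group mean as a bar and the SD as a whisker, each on a y axis of its own. Kcnk6 and Hvcn1 are highest in the 3 STZ arrays, Scn2b in the 3 leptin arrays, and Kcne1l is lowest in the 3 STZ arrays.

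Kcnk6 and Hvcn1 moved beside the markers of microglia and macrophages. Of 9 such markers measured, 5 rose with STZ (Aif1, C1qa, C1qb, C1qc and Tmem119) and none fell, and Ptprc had no kept probe. Their summed linear intensity was 2744 to 3145 in saline, 11307 to 16616 in STZ and 9159 to 10696 with leptin. The part of these cells in the Kcnk6 and Hvcn1 results was not tested, and in bulk tissue a changed number of cells of a type and a changed amount of RNA per cell cannot be told apart.

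The other channels of microglia and immune cells that were measured did not pass. Kcnk13, a halothane-inhibited leak channel of microglia, gave 9.37 and 9.70 in saline, 9.09, 9.01 and 9.07 in STZ, and 9.13, 9.29 and 9.36 with leptin. All 3 STZ arrays were below both saline arrays, and the difference was −0.47 ± 0.15 (limma adjusted p = 0.17). Kcna3, the Kv channel of T cells and microglia, was detected on 1 saline and 1 STZ array, and Kcnj2, a strong inward rectifier, on 1 saline and no STZ array, so no difference is given for them. Among channels of astrocytes and oligodendrocytes (Kcnk1, Kcnk2 and Kcnj16) and of vascular wall cells (Kcnj8, Kcna5 and Kcnmb1), none of 3 and none of 3 passed in any comparison.

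The STZ difference of 69 of the 81 channel genes (85.2%) was below 0, and so was that of 65.7% of all kept probes. The median difference was −0.22 on the log2 scale for the channel genes and −0.09 for all kept probes. Scaling moved both: the median over all kept probes ran from −0.19 with median centring to −0.01 with cyclic loess, and that of the channel genes from −0.31 to −0.12 over 20 alternative settings, below the all-probe median each time. The STZ and saline arrays of 24 channel genes (29.6%) did not overlap with STZ lower, against 19.1% of all genes with a kept probe, and those of 4 (4.94%) with STZ higher, against 13%. The 11 neuronal markers measured moved beside them, with all 11 below 0 and a median of −0.28. None of these markers passed, and their summed linear intensity was 58069 to 61263 in saline, 47515 to 61588 in STZ and 54035 to 57005 with leptin. The part of neuronal RNA content in the channel values was not tested.

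By role, the STZ difference was below 0 for 8 of 9 Kv pore subunits, 4 of 5 silent Kv subunits, 4 of 5 KCNQ and EAG-family subunits, and 10 of 12 Kv auxiliary subunits. It was below 0 for 8 of 8 inward rectifiers, 7 of 7 sodium channel genes and 7 of 8 genes of the calcium- and sodium-activated potassium channel family. It was also below 0 for 4 of 5 calcium channel pore subunits and 9 of 10 genes grouped as calcium channel auxiliary subunits. The latter were grouped by symbol, which alone does not make them calcium channel subunits. They include Cacng3, Cacng5 and Cacng7, described below as AMPA receptor regulatory proteins, and Cacng2 and Cacng4, which share the Cacng symbol. The tandem-pore leak channels were more mixed, with 6 of 10 below 0, and both measured Hcn genes were below 0. Beside these counts stand 65.7% of all kept probes below 0. The counts include genes near background, whose sign carries little weight. Among them, Kcna3, Kcnj6, Scn10a and Scn11a were detected on 1 saline and 1 STZ array, and Kcnj2 on 1 saline and no STZ array. Group medians ran from −0.34 for the Kv auxiliary subunits to −0.12 for the Kv pore subunits, and apart from Kcnk6 no member of any role group passed.

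**Figure D2:**
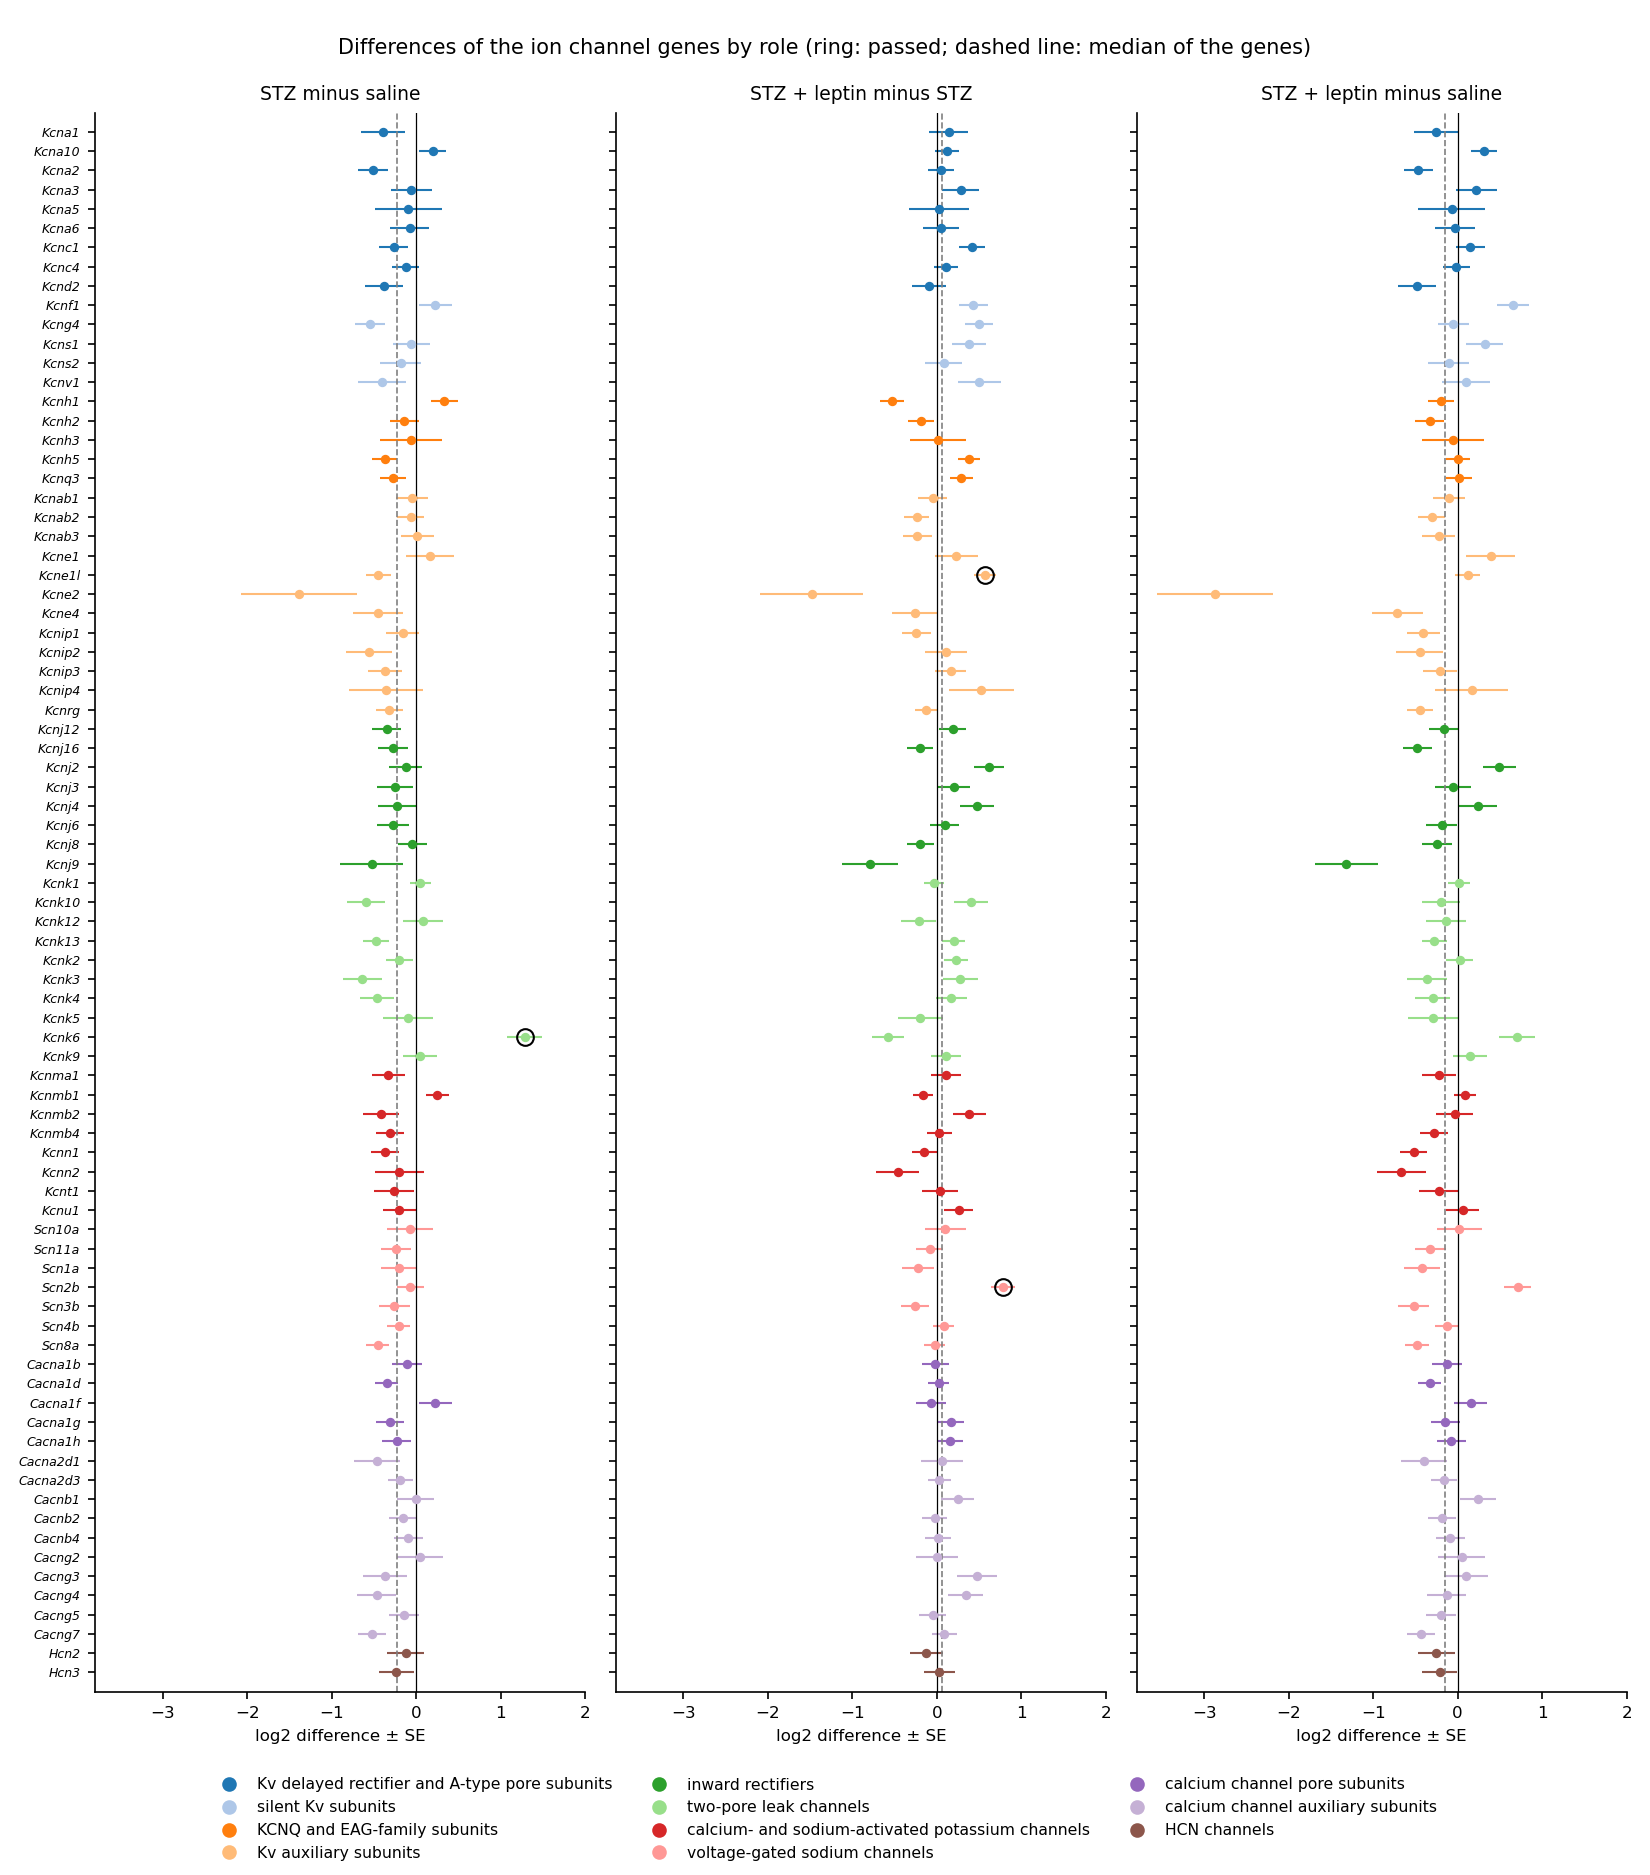
Log2 difference ± SE (x axis) of each of the 81 channel genes (y axis, ordered and coloured by role) in the 3 comparisons, with passing genes ringed and the median of the genes dashed. Most points of the left panel lie left of 0 and Kcnk6 stands alone to the right; Kcne2 lies furthest left in the right panel, at −2.87.

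Among pore subunits of the action potential, Scn8a, the Nav1.6 sodium channel of the axon initial segment, had the lowest p of those lower in STZ. Its log2 intensity was 6.81 and 6.92 in saline, 6.52, 6.33 and 6.37 in STZ, and 6.35, 6.31 and 6.49 with leptin. Both saline arrays were above all 6 others, and the differences were −0.46 ± 0.14 for STZ (limma adjusted p = 0.14) and −0.48 ± 0.14 for leptin against saline (limma adjusted p = 0.17). Kcna2, an axonal delayed rectifier, gave 9.08 and 8.86 in saline, 8.73, 8.30 and 8.35 in STZ, and 8.62, 8.39 and 8.52 with leptin, a difference of −0.51 ± 0.17 for STZ (limma adjusted p = 0.19). Again both saline arrays lay above the other 6. Scn1a, the Nav1.1 sodium channel, gave −0.20.

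Cacng7, a transmembrane AMPA receptor regulatory protein named for its likeness to the calcium channel gamma subunit, was 6.75 and 6.83 in saline, 6.39, 6.06 and 6.36 in STZ, and 6.34, 6.19 and 6.53 with leptin. Its STZ difference was −0.52 ± 0.16 (limma adjusted p = 0.16). Kcng4, a silent Kv subunit that works only with Kv2 partners, was 7.47 and 7.54 in saline, 7.01, 7.20 and 6.65 in STZ, and 7.53, 7.53 and 7.29 with leptin. Its STZ arrays lay below all others, with differences of −0.55 ± 0.18 for STZ against saline (limma adjusted p = 0.19) and 0.50 ± 0.16 for leptin against STZ (limma adjusted p = 0.13). Kcnk3, the acid-sensitive TASK-1 leak channel, was 7.51 and 7.25 in saline, 7.17, 6.39 and 6.66 in STZ, and 7.22, 7.03 and 6.81 with leptin, a difference of −0.64 ± 0.23 for STZ (limma adjusted p = 0.24).

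**Figure D3:**
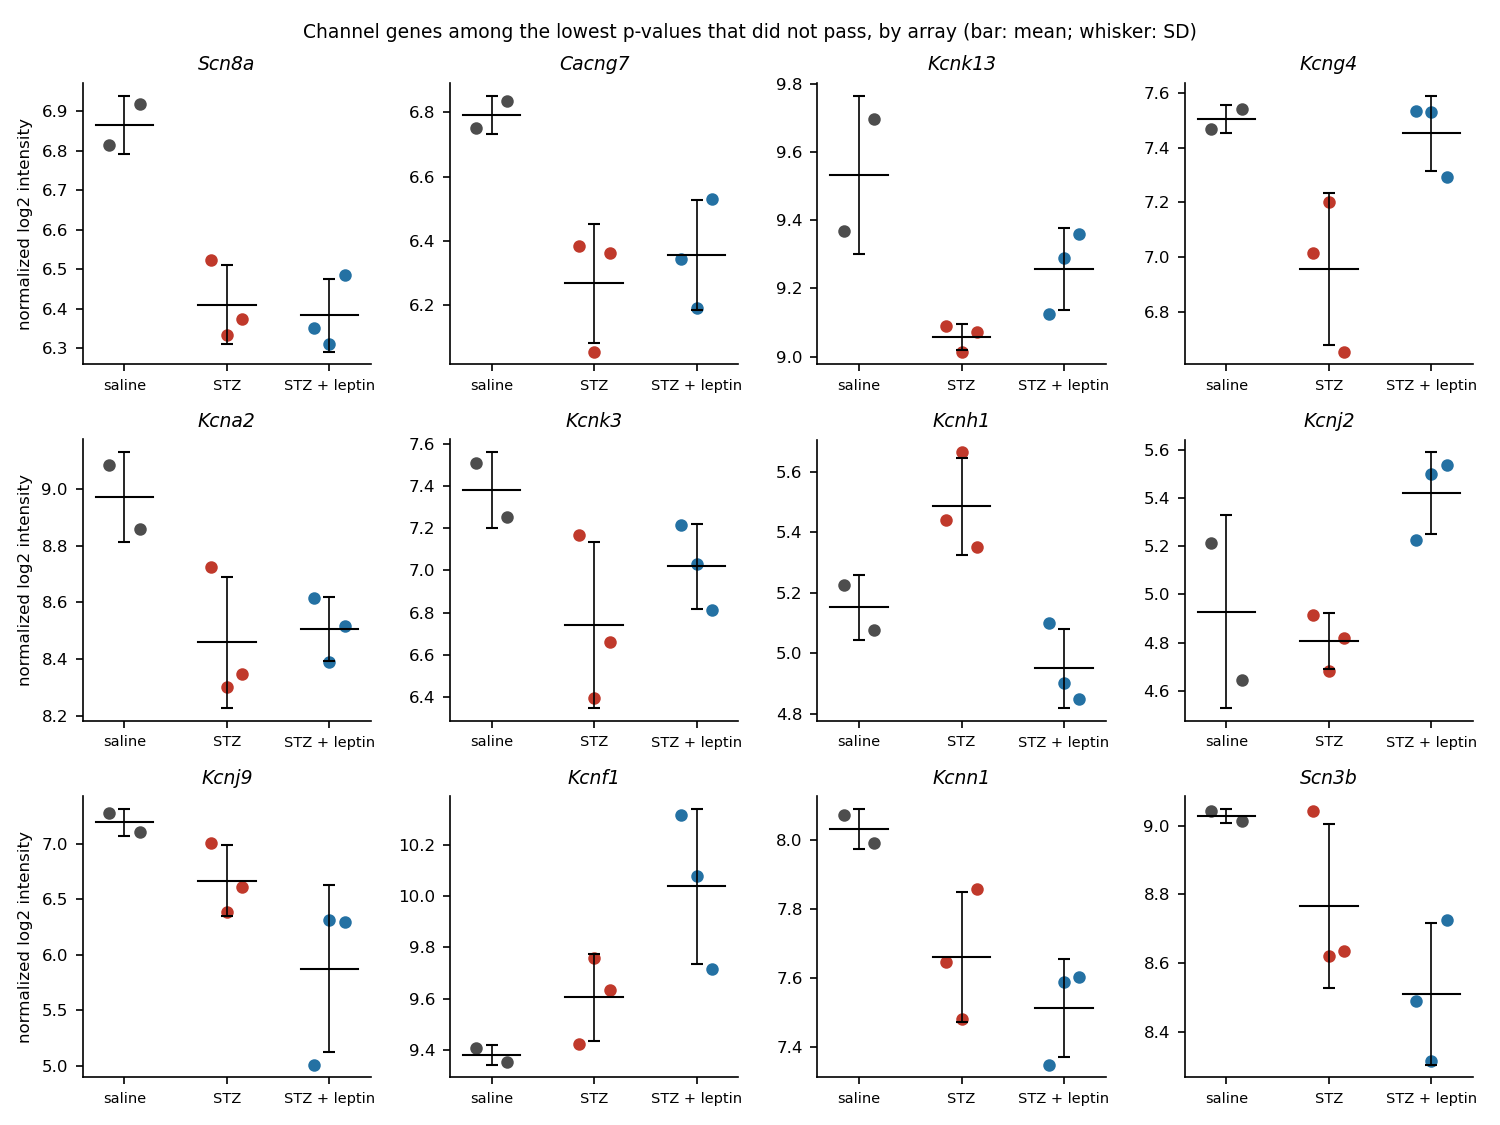
Normalized log2 intensity (y axis) by group (x axis) of 12 channel genes with low p-values that did not pass, with 1 point per array, the group mean as a bar and the SD as a whisker, each on a y axis of its own. For Scn8a, Cacng7 and Kcna2 both saline arrays lie above all other arrays, while for Kcng4 the 3 STZ arrays lie below the rest.

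STZ replicate 1 differed from the other STZ arrays in part of these genes. It was the highest of its group in 42 of the 81 channel genes, and in 45.9% of all kept probes. Kcnip4, a cytosolic partner of A-type Kv4 channels picked here after its values were seen, was 7.97 in STZ replicate 1 and 6.56 and 6.50 in the other STZ arrays, against 7.56 and 7.17 in saline. Without STZ replicate 1, 5 channel genes passed (6.17%, against 6.62% of all kept probes): Kcnk6 higher, and Kcna2, Kcnk3, Kcnk10, a TREK-2 leak channel, and Cacng3, a transmembrane AMPA receptor regulatory protein, lower. Kcnk10 was detected on only 1 of the 3 STZ arrays, so its STZ values lie near background. Without saline replicate 4, none passed. With array weights, which give less weight to arrays far from their group, 9 passed (11.1%, against 10.7% of all kept probes): Kcnk6 higher and Cacng4, Cacng7, Kcna2, Kcng4, Kcnip3, Kcnk10, Kcnk3 and Scn8a lower. Both shares are near that of all kept probes in the same setting only when higher and lower calls are pooled. By direction, 4 of the 81 channel genes were lower without STZ replicate 1, against 1.05% of all kept probes. In that setting 1 was higher, against 5.57%. With array weights 8 of 81 were lower, against 3.83%, and 1 was higher, against 6.88%. The channel calls were thus mostly lower, while those of all kept probes were mostly higher.

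**Figure D4:**
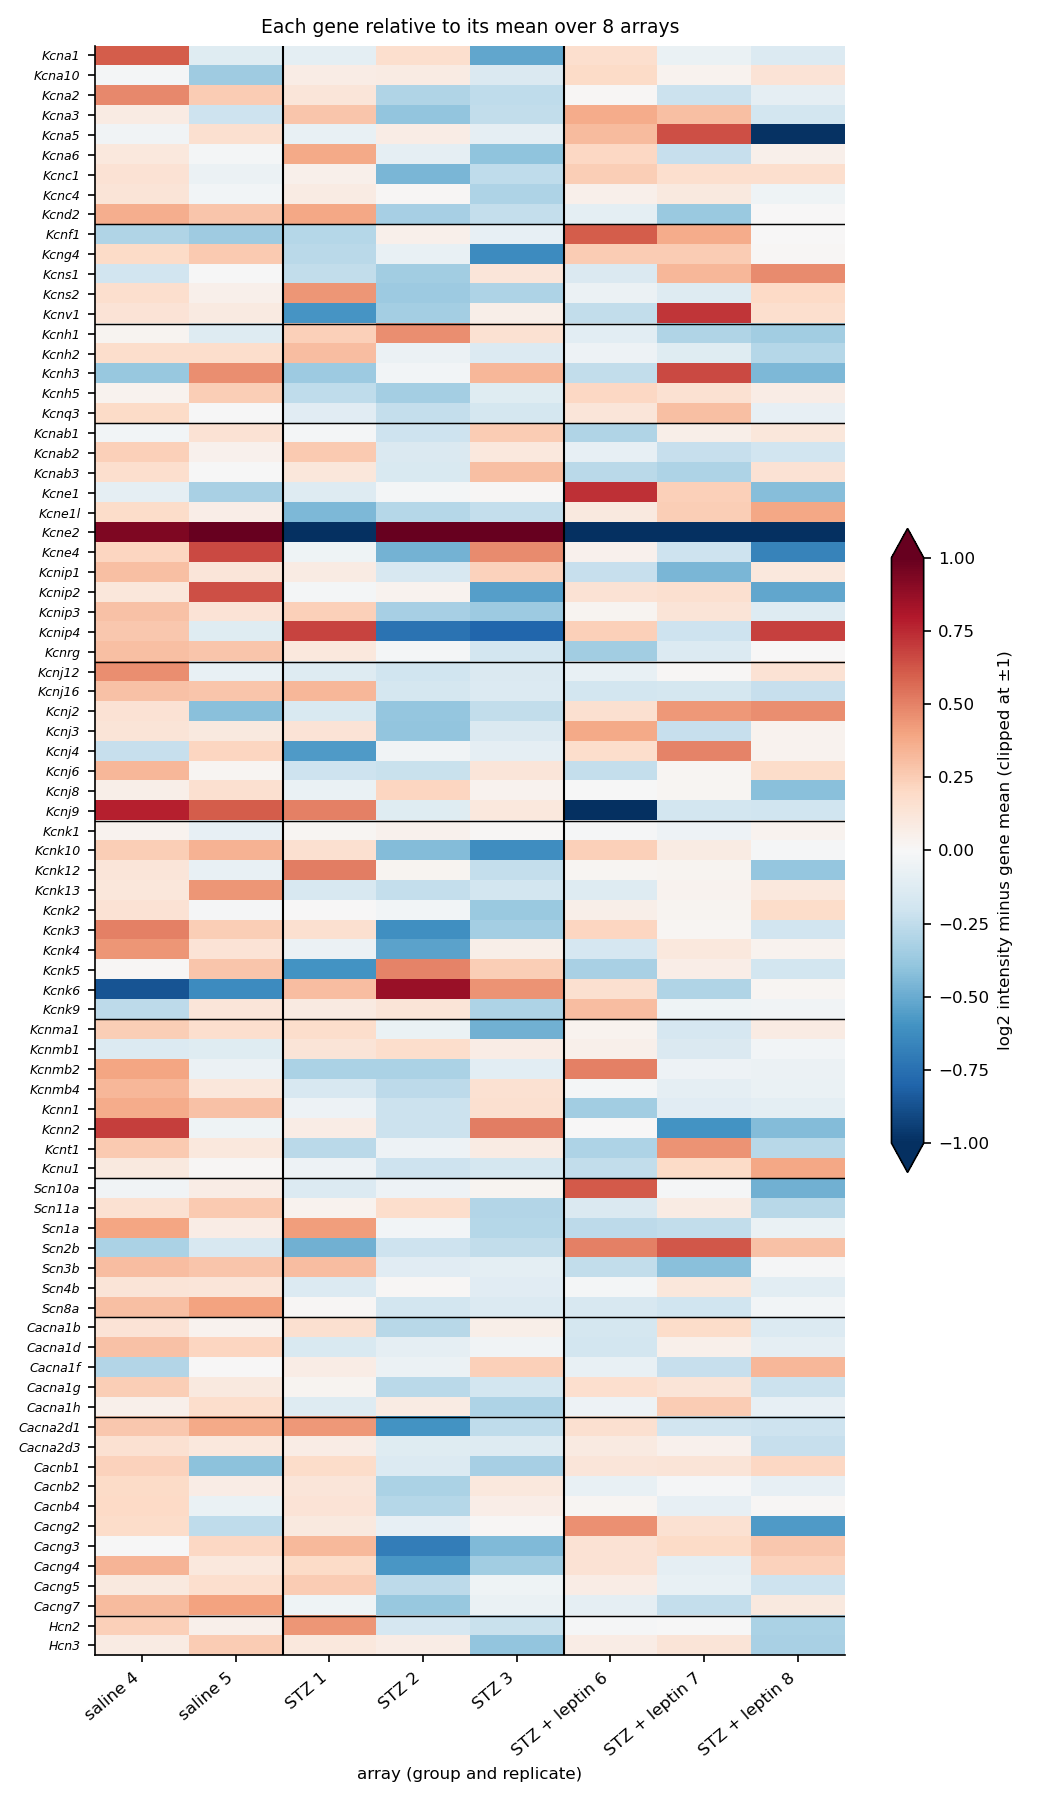
Log2 intensity of each of the 81 channel genes (y axis, in the order of their roles, with lines between roles) minus its mean over the 8 arrays, by array (x axis), with colours clipped at 1 in either direction. Kcne2 changes most between arrays, Kcnk6 is low in the 2 saline arrays, and Kcnip4, Cacng3 and Cacna2d1 are higher in STZ replicate 1 than in STZ replicates 2 and 3.

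Leptin-infused STZ mice against STZ mice compared diabetes with and without the central leptin infusion. Leptin and the infusion itself cannot be told apart in it. The auxiliary subunit genes Scn2b and Kcne1l rose, and no channel gene fell on its brightest probe. Dimmer probes of Cacng5 and Kcnk6 did fall (limma adjusted p = 0.011 and 0.043) and are given below. The 2 of 81 genes (2.47%) stand beside 5.62% of all kept probes that passed, 2.16% higher and 3.45% lower. At an unadjusted p under 0.05 there were 12 channel genes (14.8%) against 19.4% of all probes, 8 higher against 9.30% and 4 lower against 10.1%. The median difference was 0.06 for the channel genes and 0.03 for all kept probes, and 29 of 81 (35.8%) lay below 0 against 45.8% of all probes. The arrays did not overlap for 12 genes (14.8%) with leptin higher, against 12.0% of all genes with a kept probe, and for 4 (4.94%) with leptin lower, against 11.8%. Both comparisons of leptin and of STZ use the same STZ arrays, so their values are given side by side without a test of one against the other.

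Scn2b encodes the beta-2 subunit of neuronal sodium channels, a cell adhesion-like protein that is disulfide-linked to the pore subunit. Its log2 intensity was 10.77 and 10.93 in saline, 10.61, 10.89 and 10.85 in STZ, and 11.60, 11.72 and 11.38 with leptin. The saline and STZ arrays overlapped, and all 3 leptin arrays lay above them. The rise against STZ was 0.78 ± 0.14, or 1.72-fold (limma adjusted p = 0.014). Against saline the leptin arrays were 0.71 ± 0.16 higher (limma adjusted p = 0.067), and STZ differed from saline by −0.07 (95% interval −0.43 to 0.29). Without leptin replicate 6 the difference from STZ was 0.77 and without leptin replicate 7 it was 0.71, and it then did not pass (limma adjusted p = 0.056 and 0.062).

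Kcne1l, also called Kcne5, encodes a small membrane protein that can dampen the currents of Kv channel pores. Its log2 intensity was 9.41 and 9.29 in saline, 8.78, 8.94 and 8.99 in STZ, and 9.33, 9.47 and 9.61 with leptin. The 3 STZ arrays were below all others, and the leptin and saline arrays overlapped. The rise with leptin was 0.57 ± 0.13, or 1.48-fold (limma adjusted p = 0.042). STZ differed from saline by −0.45 ± 0.15 (limma adjusted p = 0.18). The rise with leptin was close to the threshold: leaving out any 1 of the 8 arrays ended the call, with adjusted p between 0.061 and 0.12.

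The start regions of the genes that rose with leptin are shown because the leptin receptor signals through STAT3, whose family binds the palindrome TTCNNNGAA. They run from 250 bases before to 50 bases after the start, 5′ to 3′, from RefSeq on GRCm38.p6, with any match in capitals. Scn2b lies on the + strand of chr9:45117626-45117925 and Kcne1l on the − strand of chrX:142306149-142306448.
Scn2b: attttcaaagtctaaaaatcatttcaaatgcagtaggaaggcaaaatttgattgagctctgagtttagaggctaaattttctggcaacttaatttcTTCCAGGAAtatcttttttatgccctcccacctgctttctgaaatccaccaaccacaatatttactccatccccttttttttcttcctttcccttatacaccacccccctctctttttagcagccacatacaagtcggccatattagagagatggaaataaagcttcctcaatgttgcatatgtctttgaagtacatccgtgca
Kcne1l: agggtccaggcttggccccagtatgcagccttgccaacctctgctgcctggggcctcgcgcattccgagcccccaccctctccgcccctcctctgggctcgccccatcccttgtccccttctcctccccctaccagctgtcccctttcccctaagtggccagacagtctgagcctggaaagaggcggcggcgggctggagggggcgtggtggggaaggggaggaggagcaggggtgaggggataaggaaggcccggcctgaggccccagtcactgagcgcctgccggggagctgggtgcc
Scn2b held 1 match, TTCCAGGAA, from 154 to 146 bases before the start, and Kcne1l held none of these letters in its window. The palindrome reads alike on both strands. It was found in 2726 of 32851 windows of the same length (8.3%) and in 9 of 89 windows of channel genes (10.1%), for the 63 of 81 genes with a window. A match is a description of letters, not a bound site. The window of Kcnk6 was not used here.

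Further genes had low p-values against STZ without passing. Kcnh1, an EAG-type potassium channel, was 5.23 and 5.08 in saline, 5.44, 5.66 and 5.35 in STZ, and 5.10, 4.90 and 4.85 with leptin. It was detected on all 3 STZ arrays and on none of the leptin arrays, and was at least 1.22-fold lower with leptin (limma adjusted p = 0.062). Kcnj2 was 5.21 and 4.65 in saline, 4.91, 4.68 and 4.82 in STZ, and 5.23, 5.50 and 5.54 with leptin. It was detected on no STZ array and on all 3 leptin arrays, and was at least 1.27-fold higher with leptin (limma adjusted p = 0.083). Such a bound sets the mean of the detected group against, for each array of the other group, the lowest signal detected on that array or the probe's own signal, whichever is higher. Kcnh5, another EAG-type channel, was detected on no STZ array and on 2 leptin arrays, and was at least 1.12-fold higher (limma adjusted p = 0.14). Kcnc1, the fast Kv3.1 channel, was 0.42 ± 0.15 higher (limma adjusted p = 0.17).

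By role, the leptin difference was above 0 for all 5 silent Kv subunits, with a median of 0.43, and for 8 of 9 Kv pore subunits, with a median of 0.11. It was below 0 for 7 of 12 Kv auxiliary subunits, 4 of 7 sodium channel genes and 4 of 10 tandem-pore leak channels. Of all kept probes, 45.8% were below 0, and the role counts again include genes near background. Of the neuronal markers, 1 of 11 rose with leptin, Map2 by 0.54, and of the microglial markers 2 of 9 fell, C1qc and Tmem119. Kcnk6 moved beside the latter: it differed by −0.58 ± 0.19 on its brighter probe (limma adjusted p = 0.12) and fell on its second probe by 0.67 ± 0.16 (limma adjusted p = 0.043). The call on the second probe was lost in 13 of 18 alternative settings. No channel gene held 1 level in saline and STZ, within 0.5, and another at least 1 away with leptin, a pattern seen in 185 of 15494 probes.

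Without STZ replicate 1, 5 channel genes passed (6.17%, against 7.85% of all kept probes): Scn2b, Cacng3, Kcnc1 and Kcnk10 higher with leptin and Kcne2 lower. Kcnk10 was detected on only 1 STZ array and Kcne2 on no leptin array, so the lower values of both lie near background. Without leptin replicate 6 or leptin replicate 7 none passed, and without any 1 of the other 5 arrays 1 passed, Scn2b.

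Leptin-infused STZ mice against saline showed what differed from control after the infusion. None of the 81 channel genes passed on its brightest probe, against 2.03% of all kept probes, 1.62% higher and 0.407% lower. A dimmer probe of Cacng5 did pass, lower with leptin, and is given below. At an unadjusted p under 0.05 there were 16 (19.8%) against 11.9% of all probes, 12 lower against 6.05% and 4 higher against 5.82%. The median difference was −0.15 for the channel genes and −0.04 for all kept probes, with 56 of 81 (69.1%) below 0 against 56.4%. The leptin and saline arrays of 31 genes (38.3%) did not overlap with leptin lower, against 19.8% of all genes with a kept probe, and those of 6 (7.41%) with leptin higher, against 14.7%. Kcnk6 gave 0.70 ± 0.21 (limma adjusted p = 0.19).

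Kcne2, an accessory subunit abundant in choroid plexus epithelium, had the widest range over the arrays. Its log2 intensity was 7.07 and 8.39 in saline, 4.74, 7.16 and 7.13 in STZ, and 4.86, 4.62 and 5.10 with leptin. It was detected on both saline arrays, on STZ replicates 2 and 3, and on no leptin array. The leptin arrays were at least 5.78-fold lower than saline, with a fitted difference of −2.87 ± 0.68 (limma adjusted p = 0.083). It passed with array weights (limma adjusted p = 0.0076), when STZ replicate 1 was left out (limma adjusted p = 0.0053) and when the STZ arrays were left out of the fit (limma adjusted p = 0.021).

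Kcne2 moved beside the choroid plexus transcripts. Ttr, the transthyretin secreted by the choroid plexus, was 13.71 and 14.75 in saline, 8.74, 14.77 and 14.84 in STZ, and 9.62, 9.87 and 11.97 with leptin. Of the 8 choroid plexus and ependyma markers measured, 6 (Ttr, Kl, Folr1, Aqp1, Clic6 and Otx2) were lower in STZ replicate 1 and the 3 leptin arrays than on the other 4 arrays. The other 2 were not. Rarres2 was 9.30 and 9.81 in saline, 9.56, 11.13 and 10.93 in STZ, and 10.31, 10.34 and 9.96 with leptin, and Foxj1 was 5.19 and 5.83, 5.70, 5.15 and 5.81, and 6.02, 5.64 and 5.52. None of the 8 markers passed in any comparison. The part of the choroid plexus left on the dissected block in the Kcne2 values was not tested.

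**Figure D5:**
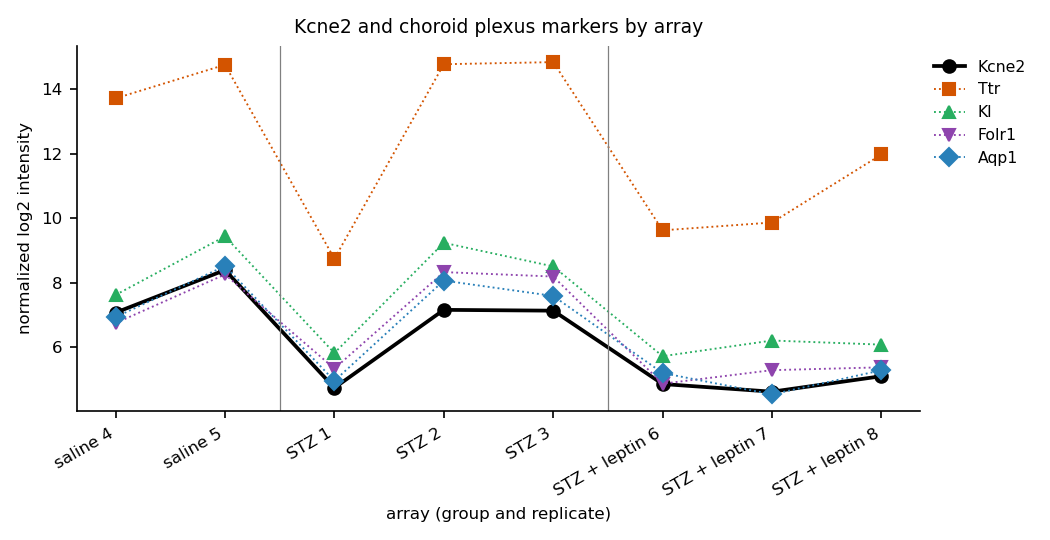
Normalized log2 intensity (y axis) of Kcne2 and of 4 of the 8 choroid plexus and ependyma markers by array (x axis), with lines joining the points of a gene only to guide the eye. The 5 genes drawn are low in STZ replicate 1 and the 3 leptin arrays, a pattern that Rarres2 and Foxj1 of the same list, not drawn, do not share; heights of different genes come from different probes and do not compare.

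Kcnj9, a G protein-gated inward rectifier subunit of neurons, was 7.28 and 7.11 in saline, 7.01, 6.38 and 6.61 in STZ, and 5.01, 6.32 and 6.30 with leptin. Its leptin arrays lay below all others and leptin replicate 6 was lowest, at a value near background. Kcnj9 was detected on only 2 of the 3 leptin arrays. The difference from saline was −1.32 ± 0.37 (limma adjusted p = 0.16). Its relatives Kcnj3 and Kcnj6 gave −0.06 and −0.19, and Kcnj6 was detected on only 1 array of each group. Kcnj8, the pore subunit of vascular KATP channels, gave −0.24.

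Kcnf1, a silent Kv subunit, was 9.41 and 9.35 in saline, 9.42, 9.76 and 9.63 in STZ, and 10.32, 10.08 and 9.72 with leptin, a difference of 0.66 ± 0.19 from saline (limma adjusted p = 0.18). All saline arrays lay below all others. Kcnn1, the small-conductance calcium-activated SK1 channel, was 8.07 and 7.99 in saline, 7.65, 7.48 and 7.86 in STZ, and 7.35, 7.59 and 7.60 with leptin, a difference of −0.52 ± 0.16 (limma adjusted p = 0.21). Scn3b, the sodium channel beta-3 subunit, was 9.04 and 9.01 in saline, 9.04, 8.62 and 8.64 in STZ, and 8.49, 8.32 and 8.73 with leptin, a difference of −0.52 ± 0.18 (limma adjusted p = 0.29). The leptin arrays of Kcnn1 and Scn3b lay below both saline arrays, so the beta-2 and beta-3 subunits of the sodium channel stood on opposite sides of saline, neither past the threshold.

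Of the genes of highest mean signal in the 11 role groups, Scn2b and Kcnf1 are described above, and the other 9 did not pass in any comparison. From saline to STZ and from STZ to leptin, Kcnc4, a Kv3.4 subunit, gave −0.12 and 0.11, and Kcnh2, the ERG1 channel, −0.14 and −0.19. Kcnab2, a cytosolic beta subunit of Kv1 channels, gave −0.07 and −0.24, and Kcnj16, a glial inward rectifier, −0.28 and −0.20. Kcnk1, the TWIK-1 leak channel, gave 0.05 and −0.03, and Kcnmb4, the neuronal beta subunit of BK channels, −0.31 and 0.03. Cacna1g, a T-type calcium channel that supports burst firing, gave −0.31 and 0.17, Cacnb4, a cytosolic calcium channel subunit, −0.10 and 0.01, and Hcn2, a pacemaker channel, −0.13 and −0.13.

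Further channels with known parts in hypothalamic or neuronal excitability also did not pass. Kcnq3, an M-current subunit, gave −0.27 with STZ and 0.29 with leptin against STZ. Kcnma1, the BK channel pore, gave −0.33 and 0.11. Kcnd2, the Kv4.2 A-type channel, gave −0.38 and −0.10, and Cacna2d1, the calcium channel subunit that binds gabapentin, −0.46 and 0.06.

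Probes of a gene could disagree. Of 17 channel genes with several kept probes, the sign differed between probes in 3 for STZ against saline, in 6 for leptin against STZ and in 5 for leptin against saline. Cacng5, another AMPA receptor regulatory protein, had 3 probes and is named after its values were seen. Its second probe was 9.57 and 9.69 in saline, 9.54, 9.36 and 9.47 in STZ, and 8.86, 8.65 and 8.67 with leptin. It was lower with leptin by 0.73 ± 0.13 against STZ (log2 difference −0.73, limma adjusted p = 0.011), while its brightest probe gave −0.05 and the third −0.00. Against saline the second probe gave −0.90 ± 0.14 (limma adjusted p = 0.012), the brightest −0.20 and the third −0.30. Leaving out saline replicate 4 or saline replicate 5 ended the call against saline (limma adjusted p = 0.10 and 0.16), and leaving out leptin replicate 7 that against STZ (limma adjusted p = 0.051).

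The number of arrays limits what could be seen. The median half-width of the 95% interval was 0.44, 0.39 and 0.44 log2 units for STZ against saline, leptin against STZ and leptin against saline. The whole interval lay within 1 log2 unit of 0 for 71, 72 and 70 of the 81 genes.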

How the data were processed

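Total RNA (300 ng per sample) was amplified and hybridised to 8 bead arrays. Per the file headers, the deposited raw table holds linear bead intensities, 1 for each probe on each array, each followed by its detection p-value. The authors' deposited processed table holds log2 values and served as an alternative. Its columns share 1 set of sorted values with a median of 6.90, and its centring was not stated. Software and build are not given in the sources used here. Intensities were background-corrected from the detection p-values, offset by 16, quantile-normalized and put on the log2 scale with neqc (limma 3.58.1, R 4.3.3). A probe was kept if detected (p under 0.05) on 2 or more arrays. Of all probes, 23978 carried 1 symbol in the platform annotation and 1719 none. Group means over all 8 arrays were fitted with lmFit, and eBayes moderated the variances (degrees of freedom 5 residual, 3.93 prior), with Benjamini-Hochberg adjustment over 15494 probes, and the fit was tested on simulated data. Named genes were those that passed, the 8 lowest p-values per comparison, the highest signal per role group and a listed set of hypothalamic and glial channels, plus genes stated as picked after their values were seen. The channel genes, role, partner and marker lists were chosen with earlier results of these data known. Alternatives covered background, scaling, filter, weights, variance model, replicate block, probe averaging, the arrays fitted and each array left out.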

Additional observations from a re-analysis of the deposited data

How the results depend on the processing

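The number of channel genes that passed was recomputed under 20 alternatives. For STZ against saline (1 in the main setting) it was 9 with array weights, 0 with the replicate block and 0 to 5 with 1 array left out. For leptin against STZ (2) it was 7 with array weights, 1 with cyclic loess and with only the groups compared, 0 under the replicate block and 0 to 5 with 1 array left out. For leptin against saline (0) it was 5 with array weights and 0 to 2 with 1 array left out. It was 1 with the authors' processed values, with no background correction, with normexp and with the robust trend (Scn2b, higher), and 1 with only the groups compared (Kcne2, lower). All other settings with the 8 arrays kept the number. The calls over all kept probes moved too: for STZ against saline 664 in the main setting, 1659 with array weights, 336 under the replicate block and 281 to 1025 with 1 array left out, and for leptin against STZ 870, 1859, 474 and 483 to 1216. The 33 named differences were mostly picked for passing or for a low p in these same arrays, which makes a kept sign likely. Over these differences and 643 recomputed values, 582 kept direction and side of the threshold, 36 dropped below it, 25 rose past it and none changed sign. The cause of these shifts was not tested.

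The description numbers are shared across groups. Deviations from the group mean correlated at −0.22 to 0.09 over 6 pairs of the same number, against −0.32 to 0.32 over 15 others. The deviations of the 2 saline arrays are mirror images of each other, and 1 number occurs on 2 STZ arrays. These correlations therefore cannot decide whether the numbers pair the samples. With the number as a block, Kcnk6 was 1.39 higher in STZ (limma adjusted p = 0.066), Scn2b 0.79 higher with leptin than in STZ (limma adjusted p = 0.075) and Kcne1l kept its direction (limma adjusted p = 0.19). Hvcn1 was then lower with leptin than in STZ by 0.93 (log2 difference −0.93, limma adjusted p = 0.066).

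With 2 saline arrays, leaving out either leaves 1, which is then assumed to vary like the other groups. Genes near background, such as Kcnj2 and Kcnh1, have only bounds in groups without detection. The number of arrays and the signal over background limit these values.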
